A study of Mus musculus with 20 samples.

Results

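Messenger RNA levels of 8 genes for C-type lectin and C-type lectin-like receptors were followed in BV-2 cells, an immortalised mouse microglial line. The genes were Clec9a (ENSMUSG00000046080), Clec4d (ENSMUSG00000030144), Clec4e (ENSMUSG00000030142), Clec4n (ENSMUSG00000023349), Clec4a1 (ENSMUSG00000049037), Clec5a (ENSMUSG00000029915), Clec12a (ENSMUSG00000053063) and Clec2d (ENSMUSG00000030157). They were taken by symbol from the 56941 Ensembl gene rows of the count table, and all 8 were among the 13755 genes with enough reads to be tested. The 4 groups were RGS10 knockout cells with interferon gamma (IFNγ), wild-type cells with IFNγ, knockout cells with vehicle and wild-type cells with vehicle. IFNγ was given at 10 ng/mL in medium for 48 h, and vehicle was medium alone for the same time. Each group had 5 libraries, 3 from batch 1 and 1 each from batches 2 and 3. RGS10 is a regulator of G protein signalling. The labels call the replicates biological without saying whether they are separate cultures, and the p-values cover only the spread among these libraries. How the knockout line was made, and whether it is 1 clone, is not stated in the labels.

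C-type lectin receptors are membrane proteins of myeloid cells that bind sugars, lipids or proteins of microbes and of dead or neighbouring cells. Mincle (Clec4e), MCL (Clec4d) and Dectin-2 (Clec4n) carry no signalling motif of their own. They pair with the adaptor FcRγ (Fcer1g), which recruits the kinase Syk and, through it, the Card9, Bcl10 and Malt1 complex that activates NF-κB. MDL-1 (Clec5a) pairs with the adaptors DAP12 (Tyrobp) and DAP10 (Hcst). DNGR-1 (Clec9a) binds actin filaments exposed by dead cells, signals through Syk and is best known from cross-presenting dendritic cells. Clec12a is an inhibitory receptor whose cytoplasmic motif recruits the phosphatases Ptpn6 and Ptpn11, and it senses uric acid crystals. Clec4a1 belongs to the DCIR group. Clec2d (Clr-b) is a ligand, bound by the inhibitory NK cell receptor Klrb1b.

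The 250 bases upstream of the annotated start of 4 of these genes are shown because they span the responses described here. Clec9a had no read without IFNγ, Clec5a and Clec2d were higher with IFNγ in both lines, and Clec12a was the member whose IFNγ levels separated the lines without overlap. Sequences and coordinates are those of RefSeq on GRCm38.p6, not of the build of the counts, and are written in the direction of transcription. Capitals mark the motif matches described after them.
Clec9a, chr6:129408612-129408861, plus strand: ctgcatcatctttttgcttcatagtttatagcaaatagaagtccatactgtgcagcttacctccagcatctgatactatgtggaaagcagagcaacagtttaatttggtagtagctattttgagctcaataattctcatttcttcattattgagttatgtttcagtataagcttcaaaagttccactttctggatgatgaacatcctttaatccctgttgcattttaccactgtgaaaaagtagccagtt
Clec5a, chr6:40585806-40586055, minus strand: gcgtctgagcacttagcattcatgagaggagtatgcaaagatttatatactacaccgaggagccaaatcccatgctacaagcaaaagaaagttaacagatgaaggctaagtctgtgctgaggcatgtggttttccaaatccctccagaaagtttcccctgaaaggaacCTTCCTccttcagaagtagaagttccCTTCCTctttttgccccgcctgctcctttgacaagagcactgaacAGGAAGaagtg
Clec12a, chr6:129349994-129350243, plus strand: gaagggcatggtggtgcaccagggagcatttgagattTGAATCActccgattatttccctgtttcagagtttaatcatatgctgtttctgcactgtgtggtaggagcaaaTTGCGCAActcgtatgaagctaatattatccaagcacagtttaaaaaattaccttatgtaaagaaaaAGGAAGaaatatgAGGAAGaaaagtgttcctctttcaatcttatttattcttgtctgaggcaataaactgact
Clec2d, chr6:129180365-129180614, plus strand: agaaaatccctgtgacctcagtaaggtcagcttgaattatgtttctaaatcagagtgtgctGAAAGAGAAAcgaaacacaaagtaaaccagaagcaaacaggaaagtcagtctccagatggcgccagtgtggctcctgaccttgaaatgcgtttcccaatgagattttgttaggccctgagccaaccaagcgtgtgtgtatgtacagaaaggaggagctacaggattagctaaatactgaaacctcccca

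A promoter was matched for 7 of the 8 members, all but Clec4n, and each was searched on both strands for 5 motifs, 4 of which are given here. The interferon-stimulated response element, bound by interferon regulatory factors and searched as GAAA followed after any 2 bases by GAAA, was in Clec2d and in 2.98% of 32851 promoters of the same length. AGGAAG, a core of the myeloid factor PU.1, was in Clec5a (3 matches), Clec12a, Clec4a1 and Clec4d, and in 29.5% of all promoters. TTNNGCAA, a C/EBP pattern, was in Clec4e and Clec12a and in 9.56% of all promoters. The AP-1 letters TGANTCA were in Clec12a and in 6.75% of all promoters. No match in these genes overlapped a match of another motif. A match is a description of letters in these windows and does not show that a factor bound there.

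Total counts ran from 15866749 to 29157740 per library. Of 11 listed microglial and macrophage marker genes 10 had reads, which alone does not show identity, and Sall1 was at 0 in every library. Summed, the 11 were at 1999 to 9940 CPM per library, while P2ry12 reached at most 7.33 CPM. Neutrophil markers summed to at most 11.1 CPM and T and NK cell markers to at most 2.41 CPM in any library. Rgs10 transcripts were counted at 22.6 to 34.6 CPM in knockout vehicle cells and 55.1 to 73.0 CPM in wild-type vehicle cells. With IFNγ they were at 15.5 to 50.5 CPM in knockout cells and 22.2 to 50.0 CPM in wild-type cells, and these ranges overlapped. The labels do not state the edited position in Rgs10, and these levels do not check the genotype. Levels are CPM, the usual depth-scaled read counts, on library sizes adjusted by the TMM method, which sets all libraries to a common centre of log ratios. The IFNγ libraries of batches 2 and 3 stood apart from those of batch 1. Their Malat1 levels, a nuclear RNA used as a sign of RNA quality, were 955 to 1514 CPM on plain totals, against 55.9 to 386 CPM in the IFNγ libraries of batch 1. Their TMM factors were 0.635 to 0.892 where those of batch 1 were 1.04 to 1.06. Within batch 1 and on the same scale, Malat1 was at 55.9 to 62.7 CPM in knockout IFNγ and 51.4 to 72.4 CPM in knockout vehicle libraries, and at 355 to 386 CPM in wild-type IFNγ and 64.4 to 84.0 CPM in wild-type vehicle libraries. Of 5 listed RNA quality genes, Malat1, Neat1 and mt-Co1 were called higher with IFNγ in each line, the median log2 change of the 5 being 0.95 in knockout and 1.35 in wild-type cells. With IFNγ, Neat1, mt-Co1 and mt-Cytb were called lower in knockout than in wild-type cells (median of the 5, −1.05), and with vehicle none of the 5 was called. Their summed level, TMM-scaled, was 1287 to 13844 CPM in knockout IFNγ, 4606 to 11111 CPM in wild-type IFNγ, 889 to 5751 CPM in knockout vehicle and 1746 to 6469 CPM in wild-type vehicle libraries. The part of these library differences in the results on the 8 genes was not tested.

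IFNγ raised 7 of the 8 receptor genes in each line, and among IFNγ groups the knockout line had lower levels of 6 of the 8 genes and higher levels of Clec9a and Clec12a. These are levels in bulk RNA, where fewer cells expressing a gene and less RNA per cell cannot be told apart. With IFNγ in knockout cells 7 genes rose and Clec4a1 was not called, where 43.2% of the 13755 genes tested were called and 21.4% were called higher. With IFNγ in wild-type cells the same 7 rose and Clec4a1 fell, where 58.9% of genes were called, 29% higher and 29.9% lower. The median log2 change of the 8 was 1.80 in knockout cells, where that of all genes was −0.02, and 2.16 in wild-type cells, where that of all genes was 0.01. These medians are the same with Clec9a set at its lower bound. The 8 genes were chosen with earlier results of these data known, so the shares and medians of all genes are no yardstick for them. Clec9a had no read with vehicle, was tested through its IFNγ libraries and could only be called higher. Between lines with vehicle, 3 members were lower in knockout cells and none was higher, Clec9a having no read to compare, where 27.3% of genes were called and 14.8% were lower. Between lines with IFNγ, 6 members were lower and Clec9a and Clec12a higher in knockout cells, where 39% of genes were called, 20% higher and 19% lower. The groups of 5 libraries did not overlap for 6 members in the knockout IFNγ comparison and for 5 in the wild-type one. Without overlap in this way were 13.4% of all genes upward and 14.2% downward in knockout cells, and 18% upward and 18.2% downward in wild-type cells. Calls are at an adjusted p under 0.05 from the quasi-likelihood test of edgeR with Benjamini-Hochberg adjustment over all genes, with batch as a term. Fitted log2 changes are given ± SE.

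**Figure D1:**
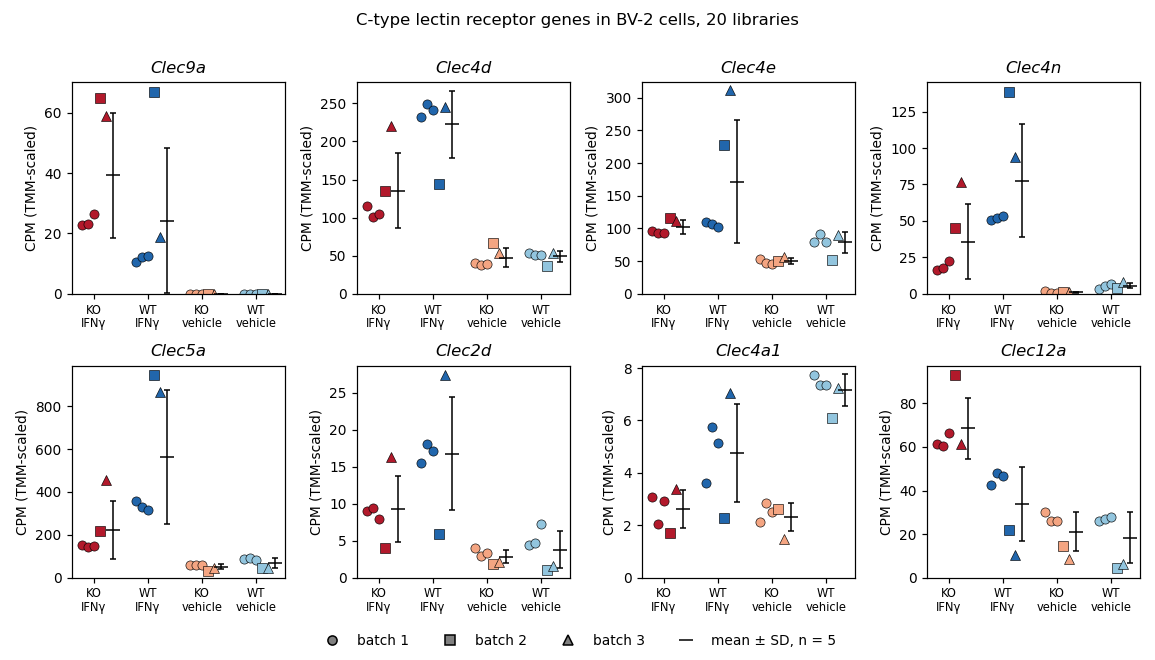
CPM of each receptor gene in the 20 libraries, with symbols for batches and bars for the mean ± SD of 5 libraries. Clec9a is at 0 in all vehicle libraries, and in the IFNγ groups the batch 2 and batch 3 libraries of Clec5a and Clec4n lie above those of batch 1.

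Clec9a was the only member without a read in any of the 10 vehicle libraries, and it was read in all 10 IFNγ libraries. In knockout cells with IFNγ it stood at 22.9, 23.2 and 26.5 CPM in batch 1, 64.8 CPM in batch 2 and 58.9 CPM in batch 3. Wild-type cells with IFNγ had 10.6, 12.3 and 12.5 CPM in batch 1, 66.9 CPM in batch 2 and 18.7 CPM in batch 3. The knockout libraries were thus above the wild-type ones in batches 1 and 3 and just under in batch 2, and the groups overlapped. A floor of 3 counts over the group, 0.0238 CPM in knockout vehicle cells and 0.0308 CPM in wild-type vehicle cells, made the IFNγ level at least 1652-fold higher in knockout cells and at least 785-fold higher in wild-type cells. Without the batch 2 wild-type IFNγ library the wild-type limit was at least 439-fold. Between lines with IFNγ the fitted log2 difference was 0.94 ± 0.21 (adjusted p = 0.00413), higher in knockout cells. Within batches the log2 ratio of knockout over wild-type level, computed on CPM + 0.5, was 1.003 in batch 1, −0.04 in batch 2 and 1.63 in batch 3. The call was lost without a batch term (0.70, adjusted p = 0.374) and in batches 2 and 3 alone (0.78, adjusted p = 0.242).

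Clec9a shares 184 exon bases on the same strand with the neighbouring gene Clec1b in the GENCODE annotation, so reads there could be assigned either way. Clec1b, a receptor of platelets and myeloid cells, averaged 0.452 ± 0.120 CPM in knockout cells with IFNγ and 1.27 ± 0.445 CPM in wild-type cells with IFNγ (SD, n = 5 each). Because Clec9a is known from dendritic cells, 12 dendritic cell markers were read beside it. Cd8a had no read in any library, Xcr1 reached at most 0.931 CPM and Flt3 at most 0.617 CPM. Other markers of the list were expressed, with group means of 222 to 354 CPM for Cadm1 and 76.7 to 214 CPM for Wdfy4. Batf3 had group means of 6.48 to 16.4 CPM and Zbtb46 of 6.59 to 16.1 CPM. Their summed level was 521 to 783 CPM in knockout IFNγ cells, 438 to 1094 CPM in wild-type IFNγ cells, 457 to 559.9 CPM in knockout vehicle cells and 481 to 526 CPM in wild-type vehicle cells. Of the 6 markers with enough reads, 1 rose and 2 fell with IFNγ in each line. The riser was Itgax, the integrin subunit CD11c, which macrophages also express. It averaged 174 ± 175 CPM in knockout and 199 ± 163 CPM in wild-type IFNγ cells, against 5.31 ± 1.07 CPM in knockout and 31.3 ± 25.8 CPM in wild-type vehicle cells. Wdfy4 and Btla had lower means with IFNγ in both lines. Wdfy4 averaged 77.4 CPM in knockout and 76.7 CPM in wild-type IFNγ cells, against 142 CPM and 214 CPM with vehicle. Btla averaged 0.0964 CPM in knockout and 0.845 CPM in wild-type IFNγ cells, against 1.45 CPM and 2.95 CPM with vehicle.

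Clec4n, encoding Dectin-2, had the largest fitted IFNγ change of the 7 members with reads in vehicle. Its IFNγ level in knockout cells was 16.6, 17.4 and 22.6 CPM in batch 1, 45.1 CPM in batch 2 and 76.9 CPM in batch 3. In wild-type cells with IFNγ it was 50.5, 52.2 and 53.2 CPM in batch 1, 139 CPM in batch 2 and 94.2 CPM in batch 3. Vehicle libraries had 1.77, 0.763, 0.775, 1.09 and 1.13 CPM in knockout cells and 3.66, 5.44, 7.02, 4.15 and 7.90 CPM in wild-type cells. Every IFNγ library was above every vehicle library in both lines, and every knockout vehicle library was below every wild-type one. The log2 change with IFNγ was 4.78 ± 0.36 (adjusted p = 5.09e-09) in knockout cells and 3.67 ± 0.32 (adjusted p = 2.28e-08) in wild-type cells. Knockout cells had less Clec4n than wild-type cells with vehicle, by a log2 difference of −2.34 ± 0.35 (adjusted p = 4.01e-05), and with IFNγ, by −1.23 ± 0.29 (adjusted p = 0.00233). With IFNγ the 2 lines overlapped, through the batch 3 knockout library at 76.9 CPM. The IFNγ difference between lines was not called in batches 2 and 3 alone (−1.02, adjusted p = 0.0664). The difference with vehicle was called under every alternative, and it is the only one of the 3 vehicle calls for which that held.

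Clec4d, the MCL receptor that pairs with Mincle, was higher with IFNγ in both lines, without overlap. Knockout cells with IFNγ had 116, 101 and 105 CPM in batch 1, 135 CPM in batch 2 and 219.8 CPM in batch 3. Wild-type cells with IFNγ had 233, 249.6 and 242 CPM in batch 1, 144 CPM in batch 2 and 245 CPM in batch 3. Vehicle levels were 38.4 to 66.3 CPM in knockout cells and 36.5 to 54.1 CPM in wild-type cells, and these overlapped. IFNγ changed Clec4d by a log2 of 1.47 ± 0.19 (adjusted p = 7.44e-06) in knockout cells and 2.18 ± 0.20 (adjusted p = 2.6e-08) in wild-type cells. The lines were not called different with vehicle (−0.05 ± 0.19, adjusted p = 0.868, 95% interval −0.45 to 0.34). With IFNγ the knockout level was lower, with a log2 difference of −0.76 ± 0.19 (adjusted p = 0.00337), although the libraries of the lines overlapped. That difference was −1.15 in batch 1 alone and −0.15 in batches 2 and 3 alone, where it was not called (adjusted p = 0.774).

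Clec4e, the Mincle receptor for mycobacterial glycolipids, had its smallest IFNγ response in batch 1 of wild-type cells. Knockout cells with IFNγ had 96.6, 93.3 and 92.9 CPM in batch 1, 117 CPM in batch 2 and 112 CPM in batch 3. In wild-type cells with IFNγ it was 109, 107 and 102 CPM in batch 1, 227 CPM in batch 2 and 311 CPM in batch 3. Vehicle levels were 45.1 to 56.8 CPM in knockout cells and 52.1 to 91.6 CPM in wild-type cells. The IFNγ and vehicle groups did not overlap in either line. The log2 change with IFNγ was 1.01 ± 0.21 (adjusted p = 0.000816) in knockout cells and 1.02 ± 0.22 (adjusted p = 0.000438) in wild-type cells. Within batches it was 0.94 in batch 1, 1.20 in batch 2 and 0.97 in batch 3 for knockout cells and 0.34 in batch 1, 2.11 in batch 2 and 1.77 in batch 3 for wild-type cells. The wild-type change was 0.33 in batch 1 alone and 1.94 in batches 2 and 3 alone, called in both.

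Between lines, Clec4e was lower in knockout cells with vehicle, by a log2 of −0.64 ± 0.21 (adjusted p = 0.0284), and with IFNγ, by −0.66 ± 0.21 (adjusted p = 0.0185). The vehicle call did not hold without wild-type vehicle replicate 1 (−0.61, adjusted p = 0.0619), 2 (−0.53, adjusted p = 0.0875) or 3 (−0.60, adjusted p = 0.0631). It was also lost without knockout vehicle replicate 3 (−0.64, adjusted p = 0.0545), 4 (−0.62, adjusted p = 0.0573) or 5 (−0.57, adjusted p = 0.08). No batch term (−0.63, adjusted p = 0.0989) and batches 2 and 3 alone (−0.37, adjusted p = 0.503) gave no call. The IFNγ call was lost without wild-type IFNγ replicate 4 (−0.47, adjusted p = 0.0888) or 5 (−0.42, adjusted p = 0.104) and without knockout IFNγ replicate 5 (−0.57, adjusted p = 0.0613). In batch 1 alone the difference with IFNγ was −0.14, and in batches 2 and 3 alone −1.22.

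Clec5a, encoding MDL-1, rose with IFNγ in both lines and was lower in knockout than in wild-type IFNγ cells, and this was the only one of the 8 calls between IFNγ groups that held under every alternative. Knockout cells with IFNγ had 151, 141 and 149 CPM in batch 1, 216 CPM in batch 2 and 455 CPM in batch 3. Wild-type cells with IFNγ had 358, 328 and 318 CPM in batch 1, 944 CPM in batch 2 and 868 CPM in batch 3. Vehicle levels were 61.1, 57.7, 59.4, 33.5 and 43.3 CPM in knockout cells and 86.3, 94.0, 81.4, 43.0 and 44.0 CPM in wild-type cells. IFNγ libraries were above all vehicle libraries in each line, while the 2 IFNγ groups overlapped through the batch 3 knockout library. Its log2 change with IFNγ was 2.00 ± 0.37 (adjusted p = 0.000294) in knockout cells and 2.90 ± 0.39 (adjusted p = 3.82e-06) in wild-type cells. In batch 1 alone the change was 1.33 in knockout and 1.93 in wild-type cells. In batches 2 and 3 alone it was 3.07 in knockout and 4.39 in wild-type cells. The lines differed by −1.37 ± 0.36 (adjusted p = 0.00525) with IFNγ, lower in knockout cells in every batch, and were not called different with vehicle (−0.47 ± 0.36, adjusted p = 0.353, 95% interval −1.22 to 0.27). With no filter beyond 1 read the vehicle difference was called (−0.46, adjusted p = 0.027), as it was in batch 1 alone (−0.56, adjusted p = 3.16e-09).

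Clec12a, the inhibitory member, was higher in knockout cells than in wild-type cells with IFNγ, without overlap between the libraries. Of all genes tested, 6.53% were apart in this way upward and 8.57% downward. Knockout cells with IFNγ had 61.4, 60.3 and 66.4 CPM in batch 1, 92.9 CPM in batch 2 and 61.5 CPM in batch 3. Wild-type cells with IFNγ had 42.4, 48.3 and 46.7 CPM in batch 1, 21.8 CPM in batch 2 and 10.3 CPM in batch 3. Vehicle levels were higher in batch 1 than in batches 2 and 3 in both lines, at 30.0, 26.1, 26.0, 14.5 and 8.69 CPM in knockout cells and 26.0, 26.8, 27.6, 4.66 and 6.33 CPM in wild-type cells. The log2 change with IFNγ was 1.97 ± 0.33 (adjusted p = 0.000109) in knockout cells, without overlap. In wild-type cells it was 0.94 ± 0.32 (adjusted p = 0.0179), and the IFNγ and vehicle libraries overlapped. The wild-type call was lost without vehicle replicate 4 (0.68, adjusted p = 0.0518) and without a batch term (0.89, adjusted p = 0.121). The knockout change was 1.22 in batch 1 alone, still called.

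The difference of Clec12a between lines with IFNγ was 1.33 ± 0.33 (adjusted p = 0.00316), a 2.52-fold higher level in knockout cells. It was 0.48 in batch 1 alone and 2.29 in batches 2 and 3 alone, called in both, and was not called without a batch term (1.01, adjusted p = 0.118). With vehicle the lines were not called different (0.30 ± 0.32, adjusted p = 0.534, 95% interval −0.38 to 0.97).

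Clec4a1, of the DCIR group, was the member that IFNγ did not raise, and it was lower in knockout cells. Its levels were 3.10, 2.04, 2.91, 1.70 and 3.37 CPM in replicates 1 to 5 of knockout cells with IFNγ and 3.62, 5.77, 5.15, 2.26 and 7.05 CPM in those of wild-type cells with IFNγ. With vehicle they were 2.13, 2.85, 2.50, 2.61 and 1.496 CPM in knockout cells and 7.75, 7.37, 7.34, 6.10 and 7.23 CPM in wild-type cells. The vehicle libraries of the lines did not overlap, a separation downward that 13.2% of all genes showed. The log2 difference of knockout from wild type was −1.60 ± 0.26 (adjusted p = 0.000115) with vehicle and −0.85 ± 0.26 (adjusted p = 0.0144) with IFNγ. In batches 2 and 3 alone the vehicle difference was −1.62, adjusted p = 0.172. The IFNγ difference was lost there (−0.86, adjusted p = 0.406), with plain totals (−0.74, adjusted p = 0.057) and without wild-type IFNγ replicate 5 (−0.65, adjusted p = 0.0658).

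With IFNγ Clec4a1 changed by 0.13 ± 0.27 (adjusted p = 0.715) in knockout cells, with a 95% interval of −0.42 to 0.69, and by −0.62 ± 0.26 (adjusted p = 0.0442) in wild-type cells. The wild-type call was lost in 11 of 19 alternatives. Among single libraries, it was lost without wild-type vehicle replicate 1 (−0.61, adjusted p = 0.0722), 2 (−0.63, adjusted p = 0.0642), 3 (−0.64, adjusted p = 0.0629) or 4 (−0.58, adjusted p = 0.0808). The same held without wild-type IFNγ replicate 1 (−0.53, adjusted p = 0.111), 3 (−0.64, adjusted p = 0.0636) or 4 (−0.47, adjusted p = 0.111). Libraries of the 2 wild-type groups overlapped.

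Clec2d, the NK receptor ligand, was called higher with IFNγ in both lines although the libraries of its groups overlapped. Knockout cells with IFNγ had 9.02, 9.47 and 7.92 CPM in batch 1, 3.97 CPM in batch 2 and 16.3 CPM in batch 3. Wild-type cells with IFNγ had 15.5, 18.1 and 17.1 CPM in batch 1, 5.85 CPM in batch 2 and 27.3 CPM in batch 3. Vehicle levels were 4.08, 2.93, 3.27, 1.83 and 2.14 CPM in knockout cells and 4.36, 4.65, 7.25, 1.09 and 1.57 CPM in wild-type cells. The batch 2 libraries were the lowest of each group, and within every batch the IFNγ level was above the vehicle level in both lines. Its log2 change with IFNγ was 1.63 ± 0.33 (adjusted p = 0.000592) in knockout cells and 2.14 ± 0.33 (adjusted p = 1.92e-05) in wild-type cells, and the wild-type change was 3.35 in batches 2 and 3 alone. Klrb1b, its receptor, had no read in knockout vehicle cells and at most 0.468 CPM elsewhere, below the level for testing. Of 7 listed ligand and partner genes, 4 were tested, and 1, the cytokine receptor gene Csf2ra, rose with IFNγ in each line, by 1.51 ± 0.26 (adjusted p = 0.00014) in knockout and 1.38 ± 0.26 (adjusted p = 0.000138) in wild-type cells.

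With IFNγ the Clec2d level of knockout cells differed from that of wild-type cells by −0.82 ± 0.31 (adjusted p = 0.0448). Leaving out 1 library ended that call for wild-type IFNγ replicate 2 (−0.83, adjusted p = 0.0652), 3 (−0.85, adjusted p = 0.0596) or 5 (−0.55, adjusted p = 0.223). It did so as well for knockout IFNγ replicate 1 (−0.76, adjusted p = 0.101), 2 (−0.77, adjusted p = 0.0945), 3 (−0.72, adjusted p = 0.113) or 4 (−0.83, adjusted p = 0.0604). With the replicate block in place of batch it was −0.81, adjusted p = 0.0677. Plain totals (−0.69, adjusted p = 0.0904), no batch term (−0.85, adjusted p = 0.178) and batches 2 and 3 alone (−0.70, adjusted p = 0.413) gave no call. With vehicle the lines were not called different (−0.31 ± 0.33, adjusted p = 0.536, 95% interval −1.002 to 0.39).

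**Figure D2:**
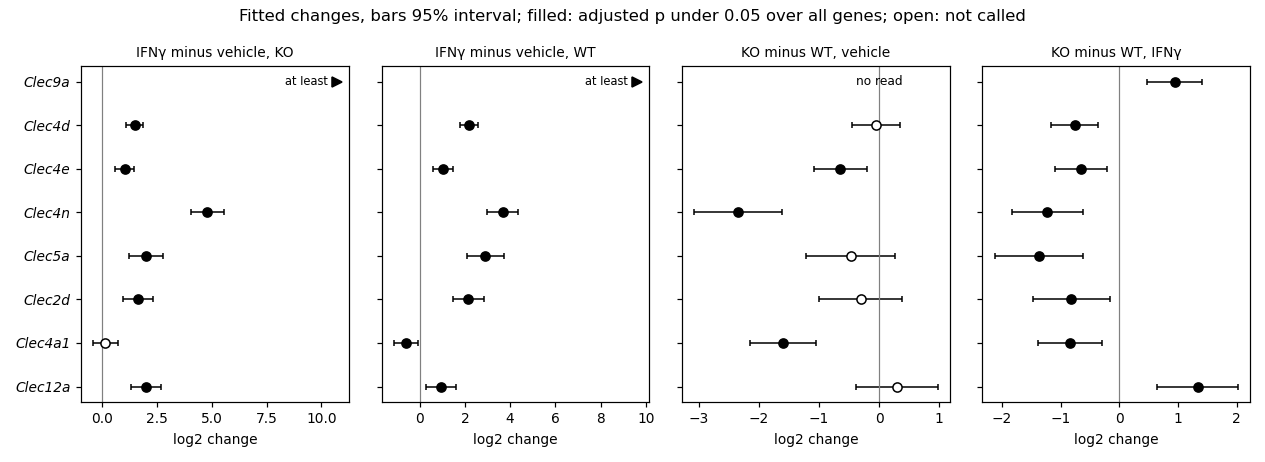
Fitted log2 changes of the 8 genes with 95% intervals in 4 comparisons, where filled points were called and open points were not, and arrows are lower bounds for Clec9a. With IFNγ, Clec9a and Clec12a lie right of 0 and the other 6 left of 0 in knockout minus wild type.

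Whether the IFNγ response itself differed between lines was tested as the difference of the responses, knockout minus wild type. None of the 7 members with an estimate was called, where 6.5% of all genes were (3.64% higher and 2.86% lower), and 3 had an unadjusted p under 0.05. These were Clec4d at −0.71 ± 0.27 (adjusted p = 0.122), Clec4n at 1.12 ± 0.45 (adjusted p = 0.15) and Clec12a at 1.04 ± 0.45 (adjusted p = 0.19). DESeq2 and limma-voom called none of the 7 either. Clec4d was called without wild-type IFNγ replicate 4 (−0.84, adjusted p = 0.0348) or knockout IFNγ replicate 5 (−0.87, adjusted p = 0.0349). Clec4n was called without knockout vehicle replicate 1 (1.52, adjusted p = 0.048). The intervals were wide. For Clec5a the 95% interval was −1.95 to 0.16 and for Clec2d −1.46 to 0.44. In batch 1 alone 7096 genes of the whole table were called, against 894 in the fit of all libraries, and 5 members were among them. Clec4d (−0.74) and Clec5a (−0.60) had a smaller response in knockout cells, and Clec4a1 (0.76), Clec4e (0.64) and Clec12a (0.46) a larger one. These batch 1 tests cover only the spread of 3 libraries per group within 1 batch, not that between batches. For Clec4e the difference of the log2 ratios went the other way in batch 2 (−0.92) and batch 3 (−0.80). With no filter beyond 1 read, Clec4d, Clec4n, Clec5a and Clec12a were called, in the direction given above. A response of Clec9a relative to vehicle could not be compared, since vehicle cells of both lines had no read.

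Seen batch by batch, the direction of the IFNγ response was shared by all 3 batches for all 8 members in wild-type cells and for 7 in knockout cells, where Clec4a1 was the exception. Its log2 ratios in knockout cells were 0.09 in batch 1, −0.50 in batch 2 and 0.96 in batch 3. The size differed between batches, for example for Clec5a, whose ratios were 1.30 in batch 1, 2.67 in batch 2 and 3.38 in batch 3 in knockout cells and 1.93 in batch 1, 4.44 in batch 2 and 4.29 in batch 3 in wild-type cells. Clec12a, Clec5a and Clec2d showed lower vehicle levels in batches 2 and 3 than in batch 1 in both lines. For knockout against wild type with IFNγ, 7 members kept 1 direction over the batches, and Clec9a was just below 0 in batch 2. With vehicle, Clec4d and Clec2d were lower in knockout cells in batch 1 and higher in batch 2. The ratios of Clec4d were −0.40 in batch 1, 0.85 in batch 2 and −0.01 in batch 3 and those of Clec2d −0.59 in batch 1, 0.55 in batch 2 and 0.35 in batch 3. In batch 1 alone, which had 3 libraries per group, 8072 genes were called between lines with vehicle, against 3753 in the fit of all libraries. Clec4d (−0.41, adjusted p = 2.11e-06), Clec5a (−0.56, adjusted p = 3.16e-09) and Clec2d (−0.67, adjusted p = 0.00233) were called lower in knockout vehicle cells in that setting. Its p-values cover only the spread within 1 batch. The IFNγ libraries of batches 2 and 3 are those with the raised Malat1 levels and low TMM factors given above, and their part in these batch differences was not tested.

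**Figure D3:**
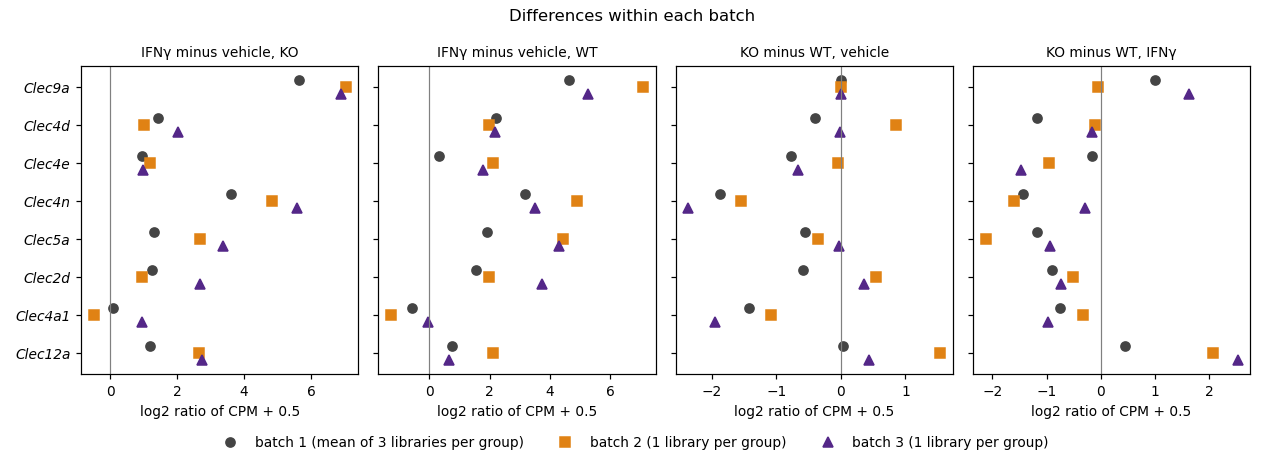
Log2 ratios of group mean CPM + 0.5 within each batch for the 4 comparisons, with 3 libraries per group in batch 1 and 1 in the other batches. Clec5a in wild-type cells shows 1.93 in batch 1, 4.44 in batch 2 and 4.29 in batch 3, and Clec9a in vehicle is drawn at 0 because it had no read.

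Levels of different members were compared per kilobase of exon, using exon lengths of the GENCODE annotation on GRCm38. In knockout cells with IFNγ, Clec4d led with 84.5 ± 30.7 CPM per kb, followed by Clec5a with 57.9 ± 34.7 and Clec4n with 25.2 ± 18.2 (SD, n = 5). Clec4e, Clec12a, Clec9a and Clec2d followed in that order, and Clec4a1 was last at 1.68 ± 0.460. In wild-type cells with IFNγ, Clec5a had 147 ± 81.9 and Clec4d 139 ± 27.7 CPM per kb, and Clec4a1 was again last at 3.06 ± 1.20. The order of the first pair differed between batches. In batch 1 Clec4d, at 146, 156 and 151 CPM per kb, was above Clec5a, at 93.1, 85.4 and 82.8. In batches 2 and 3 Clec5a, at 246 and 226 CPM per kb, was above Clec4d, at 90.2 and 153. Neighbours in that order had overlapping libraries throughout in wild-type IFNγ cells. In knockout IFNγ cells they overlapped except between Clec4e and Clec12a and between Clec2d and Clec4a1. Read library by library, however, Clec4d was above Clec5a and Clec5a above Clec4n in every knockout IFNγ library. The order of Clec4n and Clec4e differed between batches there. In batch 1 Clec4n, at 11.7, 12.3 and 15.9 CPM per kb, was below Clec4e, at 19.5, 18.8 and 18.7. In batches 2 and 3 Clec4n, at 31.8 and 54.2 CPM per kb, was above Clec4e, at 23.5 and 22.5. With vehicle, Clec4d was first in both lines, at 29.8 ± 7.64 CPM per kb in knockout cells and 30.8 ± 4.60 in wild-type cells. Clec5a and Clec4e followed it in both lines and overlapped each other. Clec4n was behind every member but Clec9a in knockout vehicle cells, at 0.778 ± 0.287 CPM per kb. In wild-type vehicle cells its mean, 3.97 ± 1.28, was ahead of those of Clec12a, Clec2d and Clec9a. In batch 1 of that group, however, Clec4n, at 2.58, 3.83 and 4.94 CPM per kb, was below Clec12a and Clec2d in each library. In batches 2 and 3, at 2.92 and 5.57 CPM per kb, it was above both.

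The signalling partners of these receptors were read from a list of 39 adaptor and signalling genes, all tested. With IFNγ 15 rose and 6 fell in knockout cells, where 21.4% of all genes were called higher and 21.8% lower. In wild-type cells 16 rose and 8 fell, where 29% of all genes were called higher and 29.9% lower. The median log2 change of the list was 0.32 in knockout cells and 0.29 in wild-type cells. The FcRγ gene Fcer1g had 534, 481, 487, 998 and 812 CPM in replicates 1 to 5 of knockout IFNγ cells and 551, 595, 550.1, 1734 and 1191 CPM in those of wild-type IFNγ cells. Vehicle levels were 297 to 400.2 CPM in knockout cells and 215 to 278 CPM in wild-type cells, below every IFNγ library of the same line. Its log2 change with IFNγ was 0.87 ± 0.19 (adjusted p = 0.00122) in knockout cells and 1.72 ± 0.20 (adjusted p = 5.23e-07) in wild-type cells. Tyrobp, the DAP12 gene, rose by 0.54 ± 0.16 (adjusted p = 0.00825) in knockout cells and 0.96 ± 0.16 (adjusted p = 2.99e-05) in wild-type cells. Hcst, the DAP10 gene, rose in wild-type cells (1.11 ± 0.25, adjusted p = 0.000793) and was not called in knockout cells (0.43 ± 0.25, adjusted p = 0.168). The difference of these responses was not called for Fcer1g (−0.85 ± 0.27, adjusted p = 0.0673), Tyrobp (−0.42 ± 0.22, adjusted p = 0.279) or Hcst (−0.68 ± 0.35, adjusted p = 0.27).

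The difference of the responses was called for 5 of the 39 partners, 2 larger and 3 smaller in knockout cells, and for 6.5% of all genes. Among them was Syk, the kinase that FcRγ and DAP12 recruit, at −0.996 ± 0.26 (adjusted p = 0.0269). It had 207, 203, 209, 268 and 633 CPM in replicates 1 to 5 of knockout IFNγ cells and 359, 335, 335, 331 and 511 CPM in wild-type IFNγ cells, against 169.7 to 204 CPM in knockout vehicle cells and 116 to 129 CPM in wild-type vehicle cells. With vehicle the knockout level was higher than the wild-type level without overlap, by 0.61 ± 0.19 (adjusted p = 0.0185). In batch 3 the knockout IFNγ library was above the wild-type one, whereas in batches 1 and 2 it was below. Ptpn6, the SHP-1 phosphatase that inhibitory lectins recruit, also differed in response, at 0.87 ± 0.24 (adjusted p = 0.0334). It had 301, 296, 282, 168 and 170.1 CPM in knockout IFNγ cells and 119.7, 120.0, 122, 175 and 168 CPM in wild-type IFNγ cells. The lines were apart in batch 1 and close to each other in batches 2 and 3. Ptpn11, the SHP-2 phosphatase, fell with IFNγ in both lines, with log2 changes of −0.59 ± 0.16 (adjusted p = 0.00567) in knockout and −0.62 ± 0.16 (adjusted p = 0.00258) in wild-type cells. Card9 was not called in any comparison, with log2 changes of 0.00 in knockout cells and 0.06 in wild-type cells. Sap130, whose nuclear protein is an endogenous Mincle ligand, was not called with IFNγ in knockout (0.18 ± 0.13, adjusted p = 0.291) or wild-type cells (−0.02 ± 0.13, adjusted p = 0.926).

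By the smallest p, the other listed partners that rose in knockout cells were Cblb, Otud1 and the kinase Src. Cblb is a ubiquitin ligase acting on Syk, and Otud1 is a Card9 deubiquitinase. In wild-type cells the smallest p among these others were those of Cblb and the adaptor Sh3bp2. Otud1 (2.68 ± 0.31) and Src (1.65 ± 0.25) were also called higher in wild-type cells, and Sh3bp2 (0.81 ± 0.16) in knockout cells. Cblb changed by 1.34 ± 0.15 (adjusted p = 1.48e-06) in knockout cells and 2.74 ± 0.16 (adjusted p = 1.02e-10) in wild-type cells, a difference of −1.39 ± 0.22 (adjusted p = 0.000812). Map3k7, the kinase TAK1 downstream of Card9, fell in both lines, with log2 changes of −0.50 ± 0.12 (adjusted p = 0.0018) in knockout and −0.72 ± 0.12 (adjusted p = 2.78e-05) in wild-type cells. Plcg2, a phospholipase downstream of Syk, fell too, with log2 changes of −0.55 ± 0.16 (adjusted p = 0.0102) in knockout and −0.96 ± 0.16 (adjusted p = 5.44e-05) in wild-type cells. Between lines, 4 of the 39 were higher and 8 lower in knockout cells with vehicle, where 12.5% of all genes were called higher and 14.8% lower. With IFNγ 10 were higher and 11 lower, where 20% of all genes were called higher and 19% lower. The adaptor Blnk was lower in knockout cells with vehicle (−0.94 ± 0.13, adjusted p = 2.21e-05) and with IFNγ (−1.20 ± 0.14, adjusted p = 1.02e-06). Otud1 was higher in knockout cells with vehicle (1.63 ± 0.30, adjusted p = 0.000385), and Traf6, a ubiquitin ligase of the NF-κB route, was higher with IFNγ (0.90 ± 0.18, adjusted p = 0.000678).

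**Figure D4:**
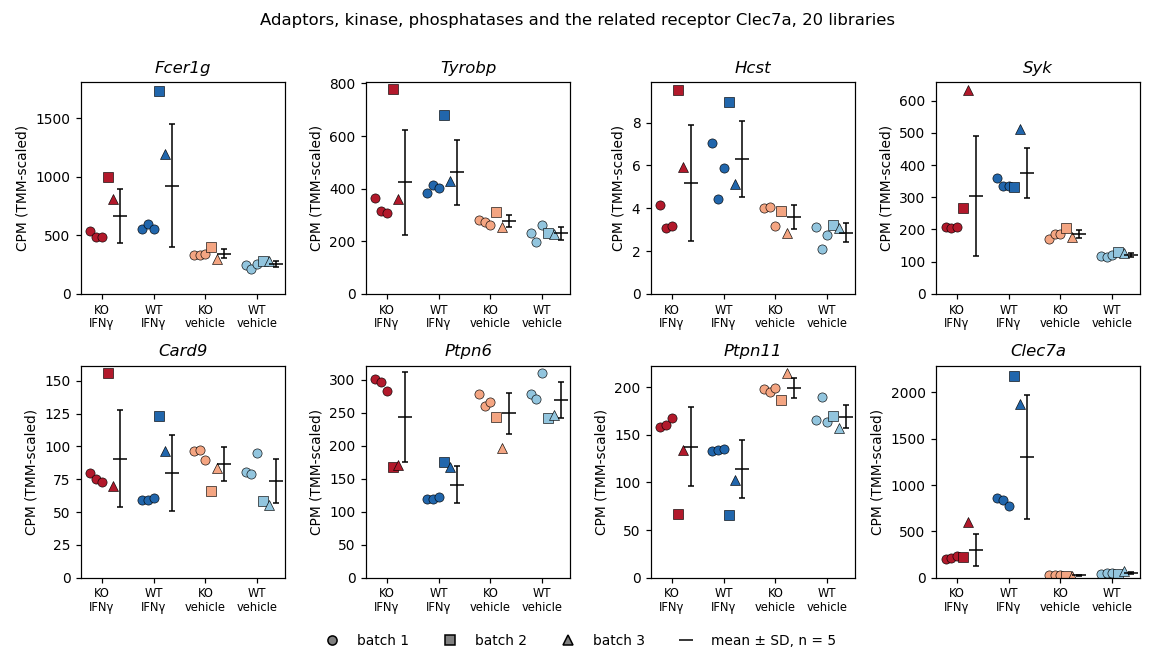
CPM of the adaptor genes Fcer1g, Tyrobp and Hcst, the kinase gene Syk, Card9, the phosphatase genes Ptpn6 and Ptpn11, and Clec7a in the 20 libraries, with symbols for batches and bars for the mean ± SD of 5 libraries. Ptpn6 is at 119.7 to 122 CPM in batch 1 of wild-type IFNγ cells, against 282 to 301 CPM in batch 1 of knockout IFNγ cells.

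All 8 members lie on mouse chromosome 6, and 7 of them in 2 runs of lectin genes. In GRCm38 gene order the first run goes from Clec4a1 through Clec4n and Clec4d to Clec4e, and the second from Clec2d through Clec12a and Clec9a to Clec7a and Olr1. In the first run the 3 genes at 1 end, Clec4n, Clec4d and Clec4e, rose with IFNγ in both lines. Clec4a1, at the other end, was not called in knockout cells and was called lower with IFNγ in wild-type cells, at −0.62. Between them, Clec4a3 and Clec4a2 were not called in either line, with log2 changes of 0.13 and 0.19 in knockout cells and −0.10 and −0.68 in wild-type cells. In the second run the 9 genes matched in the count table were all called higher with IFNγ in both lines, where 21.4% of all genes were called higher in knockout and 29% in wild-type cells. The runs were singled out after these values were seen. The 9 include Cd69, Clec12b, Clec1b, Clec1a, Clec7a and Olr1 beside the 3 members. Several are low, with Clec12b at most 1.55 CPM and Clec1a at most 3.12 CPM. In any vehicle library Clec9a, Clec12b, Clec1b, Clec1a and Olr1 were at most 0.507 CPM. They had enough reads to be tested through their IFNγ libraries and could hardly be called lower. The shares of all genes are therefore no yardstick for the 9. Reads of close paralogs in such runs may have been shared between them, since no source used here gives the counting rule.

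**Figure D5:**
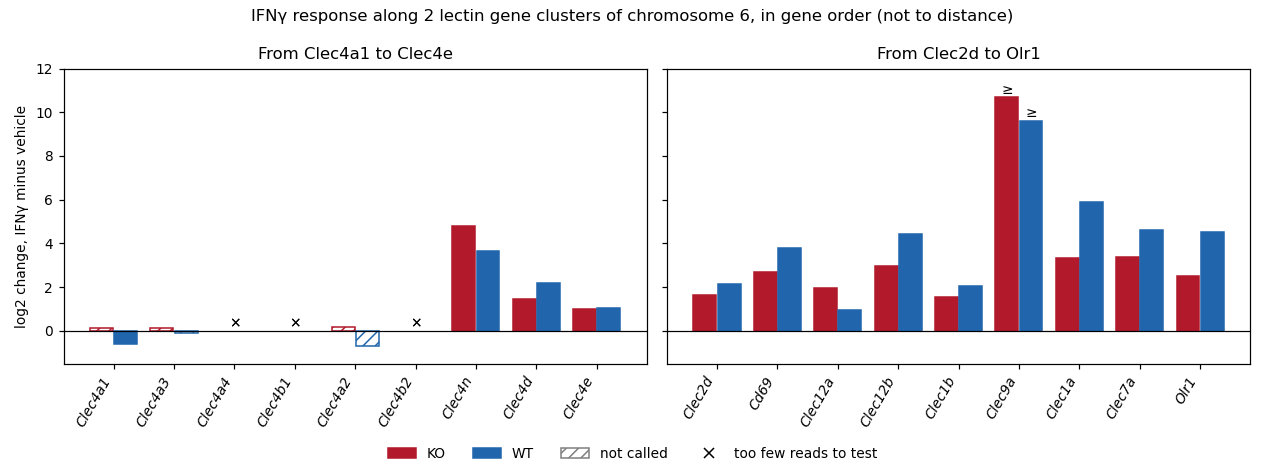
Log2 change with IFNγ in knockout and wild-type cells for lectin genes of chromosome 6 in gene order, not to distance, with hatched bars not called and Clec9a drawn at its lower bound. Clec4n, Clec4d and Clec4e rise in the left panel, and all 9 genes of the right panel rise in both lines.

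Clec7a, the β-glucan receptor Dectin-1 of the second run, had a fitted change with IFNγ below that of Clec4n in knockout cells and above it in wild-type cells. It had 204, 215, 232, 219.7 and 605 CPM in replicates 1 to 5 of knockout IFNγ cells and 864, 834, 777, 2182 and 1873 CPM in those of wild-type IFNγ cells. Vehicle levels were 16.1 to 32.5 CPM in knockout cells and 42.4 to 67.8 CPM in wild-type cells. None of the 4 groups overlapped another. Its log2 change was 3.36 ± 0.32 (adjusted p = 1.64e-07) in knockout cells and 4.61 ± 0.34 (adjusted p = 2.6e-09) in wild-type cells. Knockout cells had less of it, with log2 differences of −0.93 ± 0.30 (adjusted p = 0.0243) with vehicle and −2.17 ± 0.31 (adjusted p = 1.57e-05) with IFNγ.

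Likeness of pattern was measured as the Euclidean distance between centred profiles of 12 group-by-batch means of log2(CPM + 1), over all genes tested. The closest gene to Clec9a was Serpinb9, a granzyme B inhibitor, at a distance of 1.49, followed by Gm49774 at 1.78. Clec4n was closest to Adam8, a metalloprotease, and Clec7a, both at 1.95. Clec5a had as neighbours Cd69 at 1.19 and the costimulatory molecule gene Cd86 at 1.20. Clec2d was closest to the complement receptor gene C3ar1 at 1.10 and to Skil at 1.29. Clec4d had Dnajb9 at 0.793 and Cndp2 at 0.850, Clec4e had Sbno2 at 0.808 and Ptges at 0.917, and Clec4a1 had Casp9 at 0.860 and Xrn1 at 0.956. Clec12a had the most distant neighbours, Ifi203-ps at 2.25 and Omp at 2.38. Among the members themselves Clec4d and Clec2d were the closest pair at 1.98. The distances were not scaled to the length of each gene's own centred profile, which ran from 2.16 for Clec4a1 to 9.15 for Clec9a. They therefore do not rank how well different members were matched. The 12 means share libraries across genes, and the distances are a description without a test.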

How the data were processed

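Poly(A)-enriched RNA of 20 BV-2 libraries was sequenced, and the authors deposited 1 table of raw read counts per Ensembl gene. Per the submitters' processing notes, STAR, Trim Galore, FastQC, DESeq2 and the build GRCm39 were used, in versions and roles left unstated. Which tool counted reads, with which annotation and strand setting, is not given in the sources used here. All 20 columns matched a library. The 8 members and the gene lists were chosen with earlier results of these data known.

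Symbols (91.2% of IDs matched) and exon lengths came from GENCODE on GRCm38, and gene order and promoters from RefSeq on GRCm38.p6, so no coordinate of the build of the counts was used. Counts were scaled by TMM and filtered with filterByExpr in edgeR 4.0.16 (R 4.3.3), leaving 13755 genes. All 20 libraries entered 1 quasi-likelihood fit with group and batch as terms and 14 residual degrees of freedom. The fit was tried on simulated counts without batch differences, which cannot show how it behaves with the batches found here. P-values were adjusted by Benjamini-Hochberg over all genes of a comparison and called under 0.05. Every member was named in each comparison. From the lists of other lectins, signalling partners and ligands, up to 3 called genes each way with the smallest p were eligible, beside a set of partners read whether called or not. Genes of the 2 chromosome runs, Clec1b and single cell type markers such as Itgax were named beside this rule after their values were seen. No member was removed by the filter, so the permutation test planned for that case was not needed.

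Alternatives were RLE factors, plain totals, no filter beyond 1 read, DESeq2 1.42.0, limma-voom (limma 3.58.1), no batch term, replicate number as a block, batch 1 alone, batches 2 and 3 alone, and each library left out. No replicates were copies: their chi-squared over degrees of freedom was 3.71 to 13.8 in batch 1 and 14.8 to 397 between batches. Vehicle depth set the floor of 3 counts, which covers counting error only. Log2 ratios within batches used CPM + 0.5. The result of 1 further promoter motif is not reported here.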

Additional observations from a re-analysis of the deposited data

Results flagged for a closer look

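In 6 of the 32 gene and group combinations looked at, 1 library lay far from the other 4, its gap to the nearest being a large part of the group's range. Chance flags about 1 in 20 groups, and the 2 Clec9a vehicle groups, all at 0, could not be flagged. All 6 libraries were from batch 2 or batch 3, which hold 1 library per group, so a distant library and a distant batch cannot be told apart. Under IFNγ, Clec4d stood at 219.8 CPM in knockout replicate 5, above the rest of that group. Clec5a was at 455 CPM in the same library, also above the rest. Clec12a reached 92.9 CPM in knockout IFNγ replicate 4. Clec9a reached 66.9 CPM in wild-type IFNγ replicate 4. Below the rest were Clec4d in wild-type IFNγ replicate 4, at 144 CPM, and in wild-type vehicle replicate 4, at 36.5 CPM.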

How the results depend on the processing

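Of 26 member calls in the 5 comparisons, 15 held under every alternative. These were 7 of 7 with IFNγ in knockout cells, 6 of 8 with IFNγ in wild-type cells, 1 of 3 between lines with vehicle and 1 of 8 between lines with IFNγ. A change of sign was counted as a reversal only where the main fit or the alternative gave a call. The 1 reversal was Clec4e in the difference of responses, 0.64 in batch 1 alone against −0.01 in the fit of all libraries, and the cause was not tested. Uncalled sign changes were left out, such as that of Clec4d between lines with vehicle, which ran from −0.41 to 0.47 over the alternatives. The number of genes called over the whole table moved more than 1.5 times under some settings. For IFNγ in knockout cells it was 5937, and 3897 without a batch term. For IFNγ in wild-type cells it was 8101, and 5101 in batches 2 and 3 alone. Between lines with vehicle it was 3753, with 2318 without a batch term, 8072 in batch 1 alone and 847 in batches 2 and 3 alone. Between lines with IFNγ it was 5363, with 9580 in batch 1 alone and 1920 in batches 2 and 3 alone. For the difference of responses it was 894, with 537 on plain totals, 1480 by DESeq2, 138 without a batch term, 7096 in batch 1 alone and 121 in batches 2 and 3 alone, and 542 to 1448 with 1 library left out. The replicate block in place of batch gave 530 there. It ended the calls of Clec4a1 with IFNγ in wild-type cells (−0.63, adjusted p = 0.063) and of Clec2d between lines with IFNγ, and no other member call. Same-number libraries of batch 1 correlated at −0.13 to 0.10 in their deviations, and those of other numbers at −0.19 to 0.20, so numbers were not taken as pairs beyond batch. Plain totals in place of TMM shifted the median of all genes by −0.16 with IFNγ in knockout cells, −0.21 with IFNγ in wild-type cells and 0.13 between lines with IFNγ. The share of calls that were higher was then 38.5% in place of 49.5% with IFNγ in knockout cells, 36.7% in place of 49.2% with IFNγ in wild-type cells and 62.3% in place of 51.4% between lines with IFNγ. No member with a call in either fit changed direction. Depth limits most the levels of Clec4n with vehicle (18 to 153 counts per library), Clec4a1 (29 to 176) and Clec2d (19 to 551).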

Other observations

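Of 56 other lectin-like receptor genes, 46 had a read and 24 were tested. With IFNγ 9 rose and 6 fell in knockout cells, where 43.2% of all genes were called, and 11 rose and 5 fell in wild-type cells, where 58.9% were. The 24 had a median log2 change of 0.16 in knockout and 0.34 in wild-type cells. Some of them, such as Clec1a, Clec12b and Klrk1, had almost no reads with vehicle and could hardly be called lower with IFNγ. Between lines, 1 was higher and 9 were lower in knockout cells with vehicle (median −0.96), and 2 were higher and 13 lower with IFNγ (median −1.30). Of all genes, 27.3% were called between lines with vehicle and 39% with IFNγ, and the median of all genes was 0.03 with vehicle and 0.01 with IFNγ. Mrc1, the mannose receptor, had 3.68, 4.36, 5.05, 0.454 and 2.21 CPM in replicates 1 to 5 of knockout IFNγ cells and 15.2, 15.8, 14.6, 7.09 and 8.48 CPM in those of wild-type IFNγ cells. Vehicle levels were 12.7, 14.6, 12.7, 4.51 and 9.99 CPM in knockout cells and 121, 147, 129.6, 60.3 and 104 CPM in wild-type cells. It fell with IFNγ, with a log2 change of −1.85 ± 0.20 (adjusted p = 8.76e-07) in knockout cells and −3.22 ± 0.20 (adjusted p = 2.29e-10) in wild-type cells, and the responses differed by 1.37 ± 0.28 (adjusted p = 0.00575). Mgl2, a galactose-binding lectin of macrophages, fell with IFNγ as well, with log2 changes of −2.32 ± 0.30 (adjusted p = 6.94e-06) in knockout and −1.93 ± 0.27 (adjusted p = 5.82e-06) in wild-type cells, and was lower in knockout cells with vehicle (−2.71 ± 0.28, adjusted p = 4.32e-07) and IFNγ (−3.10 ± 0.31, adjusted p = 2.26e-07).

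Cd72, an inhibitory receptor with a lectin-like domain, went opposite ways with IFNγ, falling in knockout cells (−0.82 ± 0.22, adjusted p = 0.00459) and rising in wild-type cells (0.84 ± 0.22, adjusted p = 0.00256), a difference of −1.67 ± 0.31 (adjusted p = 0.0029). Its levels were 61.4, 58.2, 58.2, 75.4 and 136 CPM in knockout IFNγ cells, 60.4, 59.6, 57.6, 139.8 and 97.6 CPM in wild-type IFNγ cells, 111 to 142 CPM in knockout vehicle cells and 42.1 to 48.4 CPM in wild-type vehicle cells. The IFNγ groups overlapped, and the vehicle groups did not. In batch 3 the knockout IFNγ library, at 136 CPM, was above the knockout vehicle library, at 118 CPM, so the knockout decrease was seen in batches 1 and 2. Klrk1, which encodes NKG2D, a receptor that signals through Hcst, resembled Clec9a in having almost no read without IFNγ. It had 16.9, 16.4, 17.3, 7.95 and 6.69 CPM in knockout IFNγ cells and 3.62, 3.54, 3.95, 10.8 and 2.91 CPM in wild-type IFNγ cells, no read in knockout vehicle cells and at most 0.168 CPM in wild-type vehicle cells. Between lines with IFNγ it was higher in knockout cells (1.503 ± 0.43, adjusted p = 0.011), although in batch 2 the wild-type library was the higher one.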
